A study of Mus musculus with 10 samples.

Results

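The 10 genes described here mark states of cancer-associated fibroblasts, the connective tissue cells of a tumor. They were picked as a list of symbols, with no threshold on their values but with earlier results of these data known: Fap, Pdgfra, Pdgfrb, Thy1 and Postn for activated fibroblasts, Acta2 and Tagln for contractile ones, and Pi16, Dpt and Mfap5 for the so-called universal fibroblasts. All 10 were listed among the 29890 gene symbols of the expression table, and all 10 passed the filter of a mean of 1 TPM, a unit of transcripts scaled by length and by the library's total, that left 15276 genes for testing. None of the 10 was called between the Adamts7 and the vector tumors at an adjusted p under 0.05. The same limma test called 34 of the 15276 genes (0.223%), and a marker that was not called may still differ. The levels of the 10 markers varied between tumors of the same group. The highest over the lowest tumor was from 1.97-fold for Pdgfrb to 5.4-fold for Postn within the Adamts7 group, and from 2.34-fold for Pdgfra to 9.39-fold for Dpt within the vector group.

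RNA was measured in bulk subcutaneous tumors grown from B2905-M4, a mouse melanoma line, in female C57BL/6J mice injected at 7 to 8 weeks of age. In 5 tumors the injected cells overexpressed Adamts7, which encodes a secreted metalloproteinase, and in the 5 controls they carried the vector (Vec). No tumor received immunotherapy. The overexpression was in the injected cells, so host fibroblasts carried the hosts' own genome in both groups. Whether each line was 1 clone, and which promoter drove the insert, are not stated in the labels. The Adamts7 group was harvested as 2 tumors on day 35 and 3 on day 45, and the vector group as 3 on day 45 and 2 on day 50. The labels do not tie a day to a tumor, so harvest day and group cannot be told apart for the tumors of days 35 and 50.

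Fibroblasts share a basic set of collagen and small proteoglycan genes and take on different states in a tumor. Universal fibroblasts, found in most resting tissues, sit around vessels and are held to be a reservoir from which other states arise. Platelet-derived growth factors act on fibroblasts through the receptors Pdgfra and Pdgfrb, while transforming growth factor beta and mechanical tension drive the contractile state, in which the serum response factor (SRF) and its coactivators switch on actin and actin-binding genes. Many of these markers are not fibroblast-only: pericytes and vascular smooth muscle also make Acta2, Tagln and Pdgfrb, mouse T cells make Thy1, and melanoma cells that have lost pigment can make mesenchymal genes.

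Promoter windows from the RefSeq table (assembly GRCm38.p6) were found for 5 of the 10 markers, Dpt, Postn, Pdgfra, Pi16 and Acta2, with 2 windows for Postn. Only the 250 bases before each start site were used. Acta2 is shown because it varied together with the other contractile marker, and Dpt because it varied most between tumors. Capitals mark matches to the CArG box, the sequence that SRF binds, with up to 1 mismatch, and to CATTCC, the core bound by TEAD factors, read on either strand. The Acta2 window is chr19:34255374-34255623 on the minus strand, and the Dpt window is chr1:164796413-164796662 on the plus strand.
Acta2: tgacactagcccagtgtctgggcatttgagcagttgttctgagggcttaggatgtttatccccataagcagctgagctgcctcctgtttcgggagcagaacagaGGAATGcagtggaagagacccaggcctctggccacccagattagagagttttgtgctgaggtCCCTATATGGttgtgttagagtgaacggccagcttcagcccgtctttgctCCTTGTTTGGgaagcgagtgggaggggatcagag
Dpt: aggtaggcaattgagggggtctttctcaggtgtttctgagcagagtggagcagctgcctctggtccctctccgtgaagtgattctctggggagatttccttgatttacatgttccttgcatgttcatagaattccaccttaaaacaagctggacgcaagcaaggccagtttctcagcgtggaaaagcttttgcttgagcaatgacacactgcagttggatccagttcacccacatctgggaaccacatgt

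The Acta2 window held 2 CArG-like matches, CCCTATATGG from base -84 to -75 and CCTTGTTTGG from -34 to -25, counted from the start site. Of all 32851 windows of this length in the table, 8.59% held a CArG box with up to 1 mismatch on either strand and 1.47% an exact one. CATTCC lay on the minus strand at -146 to -141, and 12.6% of all windows held it. The Dpt window held neither of these. It also held no match to the AP-1 motif, TGANTCA, which 6.75% of windows held on either strand. The TATA motif searched was TATAAA, held by 12.4% of windows, and it was found in 1 Postn window at -26 to -21 and not in the Dpt window. A match here is a description of letters and not a measured binding site.

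Several tumors stand apart in ways that touch these genes. The targeted gene, Adamts7, ranged from 74.8 to 96.0 TPM in 4 of the tumors meant to overexpress it, but the tumor labelled Adamts7 5 had 18.2 TPM, between vector tumors 1, 2 and 4 (6.49 to 8.57 TPM) and vector tumors 3 and 5 (28.3 and 27.6 TPM). Its difference was 2.21 on the log2 scale (SE 0.54; limma adjusted p = 0.104), and 2.64 without that tumor (limma adjusted p = 0.0238). Vector tumors 3 and 5 had low pigment cell markers, with sums of 312.3 and 1909 TPM over 7 genes against at least 8375 TPM in every other tumor, and their T cell marker sums were 421 and 321 TPM against at most 68.8 TPM elsewhere. Skeletal muscle markers summed to 418.2 TPM in vector tumor 4 and to at most 13.4 TPM elsewhere. The difference of each marker is therefore given for all 10 tumors, without vector tumors 3 and 5, and with Adamts7 tumor 5 left out too. Those sets were chosen after the data were seen. In bulk tumors, fewer cells of a type and less RNA per cell cannot be told apart. Values are TPM as raised from the deposited log2(TPM + 1), read counts are not known, and TPM sums were 995286 to 998019 per tumor.

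Fap, the surface serine protease by which activated fibroblasts are most often recognized, had the largest difference in the direction of higher levels in the Adamts7 tumors. In the order of tumors 1 to 5, its level was 9.63, 11.7, 8.99, 18.0 and 6.18 TPM with Adamts7 and 5.94, 3.18, 8.24, 9.47 and 6.05 TPM with the vector. Adamts7 tumor 4 was highest and vector tumor 2 lowest, and the groups overlapped. That Adamts7 tumor was the lowest of the 10 tumors for Postn, Dpt and Mfap5, but not for the other markers. Which cells made the Fap RNA was not tested. The Adamts7 mean was 10.9 ± 4.42 TPM (SD, n = 5), against a vector mean of 6.58 ± 2.42 TPM (SD, n = 5). On the log2(TPM + 1) scale the difference was 0.64 (SE 0.30), with a 95% interval from -0.015 to 1.30 and a limma adjusted p of 0.257. The exact two-sided permutation test gave p = 0.0714, where the smallest p it allows is 0.00794. Without vector tumors 3 and 5 the difference was 0.75, and without Adamts7 tumor 5 as well it was 0.91 (limma adjusted p = 0.446 and 0.165). Any choice of 3 tumors a group as the unknown day 45 harvest left it above 0, from 0.05 to 1.21 over the 100 possible choices. These choices share tumors, so their number is no measure of certainty. In the authors' deposited table the log2 fold change of Fap was 0.86 (SE 0.36), with p = 0.0162 and an adjusted p of 0.117.

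The PDGF receptors did not follow Fap. Pdgfra, the receptor that marks most fibroblasts, was at 11.6, 5.70, 5.34, 3.32 and 2.41 TPM in the Adamts7 tumors, again in the order of their numbers, and at 5.19, 6.19, 11.2, 4.77 and 9.53 TPM in the vector tumors. Its high values were in Adamts7 tumor 1 and vector tumors 3 and 5. Pdgfrb, which pericytes also carry, was at 18.8, 16.3, 14.4, 9.62 and 18.9 TPM against 8.54, 14.6, 26.1, 8.19 and 23.7 TPM. Vector tumors 3 and 5 were again highest, and Adamts7 tumor 5 was the highest of its group for Pdgfrb while the lowest for Pdgfra. The log2 differences were -0.41 (SE 0.35) for Pdgfra and 0.06 (SE 0.33) for Pdgfrb, with limma adjusted p of 0.50 and 0.934. For Pdgfrb the 95% interval was -0.675 to 0.789. Without vector tumors 3 and 5 the difference was -0.08 for Pdgfra and 0.55 for Pdgfrb, and neither passed (limma adjusted p = 0.956 and 0.437). With Adamts7 tumor 5 left out too they were 0.12 and 0.47.

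Thy1, a surface glycoprotein of fibroblasts and, in the mouse, of T cells, was high in the tumors rich in T cell genes. It was at 84.5, 72.4, 63.2, 30.4 and 18.2 TPM in the Adamts7 tumors and at 33.6, 52.5, 151, 38.3 and 146 TPM in the vector tumors. Cd3e, a signaling chain that T cells carry, was at 5.10, 3.32, 4.16, 2.14 and 1.44 TPM against 6.33, 7.98, 40.4, 6.46 and 33.3 TPM. Vector tumors 3 and 5 were thus highest for both genes, but Adamts7 tumors 1 to 3 held more Thy1 than vector tumors 1, 2 and 4 at less Cd3e. The ratio of the Thy1 to the Cd3e level was 16.1 ± 3.51 (SD, n = 5) in the Adamts7 tumors and 5.19 ± 1.14 (SD, n = 5) in the vector tumors, without overlap (12.6 to 21.8 against 3.75 to 6.58); the Cd3e level alone did not overlap either. The part of T cell RNA in the Thy1 level was not tested. Over all 10 tumors the Thy1 difference was -0.55 (SE 0.54; limma adjusted p = 0.560), and without vector tumors 3 and 5 it changed sign to 0.19 (limma adjusted p = 0.908), and to 0.52 with Adamts7 tumor 5 left out too.

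**Figure D1:**
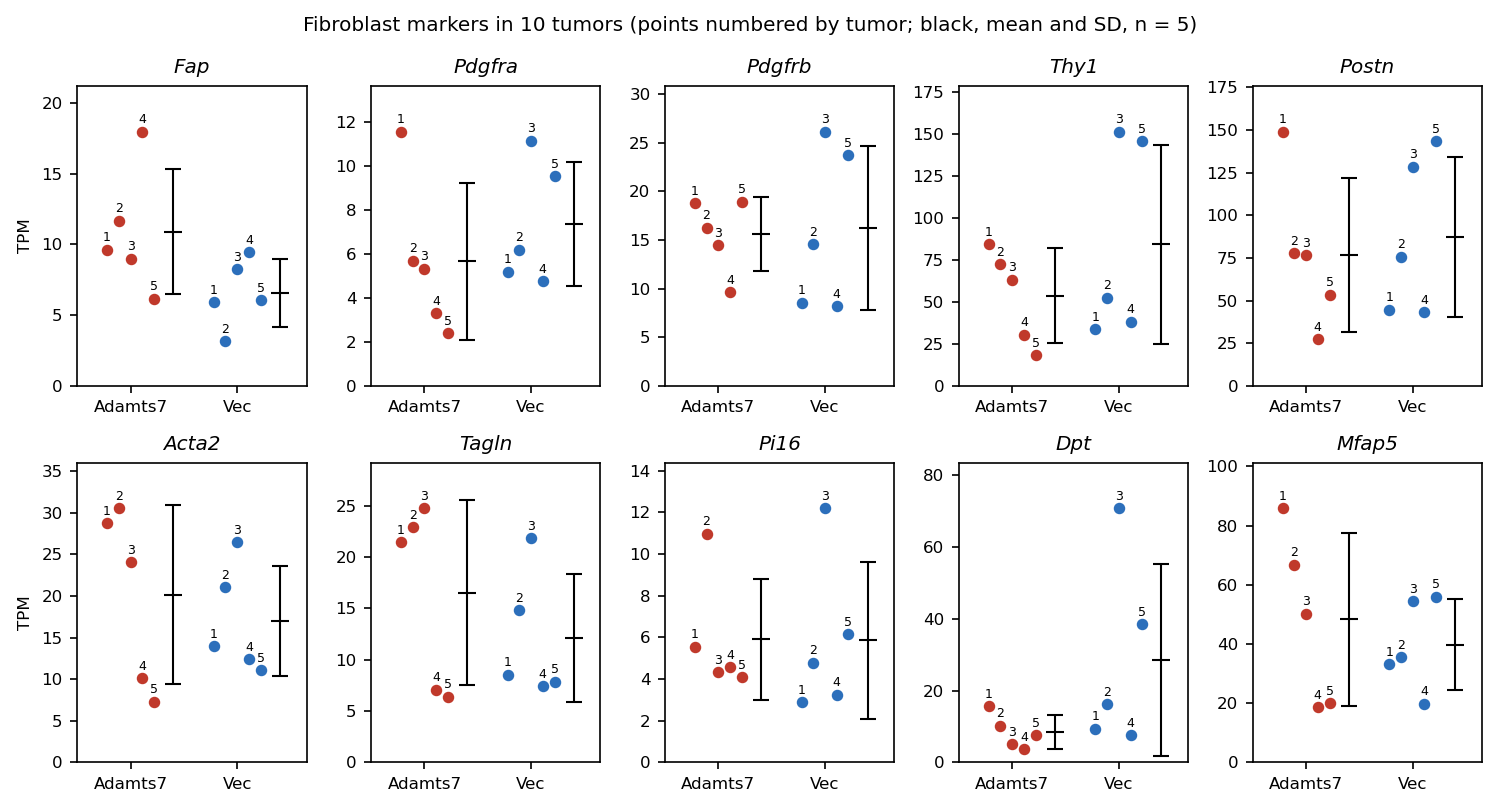
Level of each of the 10 markers in TPM (y axis, 1 panel a gene) in the Adamts7 and the Vec tumors (x axis), with 1 point a tumor labelled by its number and the mean and SD of each group of 5 beside the points. The groups overlap in every panel, and vector tumors 3 and 5 lie above the other vector tumors for Pdgfra, Pdgfrb, Thy1, Postn, Pi16, Dpt and Mfap5.

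Postn, which encodes periostin, a matrix protein of activated fibroblasts, was the most abundant of the 10 by its mean TPM. It was at 149, 77.7, 76.8, 27.6 and 53.5 TPM in the Adamts7 tumors and at 44.8, 75.8, 128.5, 43.3 and 143.5 TPM in the vector tumors. Adamts7 tumor 1 was at the level of vector tumors 3 and 5, and Adamts7 tumor 4 was the lowest of all. The log2 difference was -0.21 (SE 0.47; limma adjusted p = 0.816), and it was 0.33 without vector tumors 3 and 5 (limma adjusted p = 0.810) and 0.41 with Adamts7 tumor 5 left out too.

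The contractile markers moved as a pair. Acta2, smooth muscle alpha-actin, was at 28.8, 30.5, 24.1, 10.2 and 7.29 TPM in the Adamts7 tumors and at 14.0, 21.1, 26.5, 12.4 and 11.1 TPM in the vector tumors. Tagln, which encodes the actin-binding protein transgelin, was at 21.5, 22.9, 24.8, 7.10 and 6.42 TPM against 8.56, 14.8, 21.9, 7.46 and 7.87 TPM. In the Adamts7 group, tumors 1 to 3 were high and tumors 4 and 5 low for both genes, with no value between. Among the vector tumors, tumor 3 was high but tumor 5 was not, unlike Thy1, Postn, Pdgfra, Pdgfrb and Dpt, for which both were high. The log2 differences were 0.11 (SE 0.40) for Acta2 and 0.34 (SE 0.43) for Tagln, with limma adjusted p of 0.886 and 0.666. They were 0.17 and 0.49 without vector tumors 3 and 5, and 0.46 and 0.75 with Adamts7 tumor 5 left out too. The level of Tagln over that of Acta2 stayed between 0.603 and 1.03 in all 10 tumors.

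Other cells that carry these contractile genes were checked in the same tumors. Pericyte marker sums over 7 genes were 110.3, 83.1 and 91.6 TPM in Adamts7 tumors 1, 2 and 3 and 45.6 and 58.3 TPM in tumors 4 and 5. In that group the tumors with more Acta2 thus had higher pericyte sums. Of these sums Ndufa4l2 was 53.2, 31.0 and 34.4 TPM in tumors 1, 2 and 3 and 12.5 and 6.67 TPM in tumors 4 and 5. Rgs5, Kcnj8, Abcc9, Notch3 and Higd1b were also each higher in tumors 1 to 3, but Cspg4 was highest of that group in tumor 5, at 23.75 TPM. Vector tumor 5 had a pericyte sum of 70.2 TPM at a low Acta2 level, of which Ndufa4l2 was 20.6 TPM and Cspg4 17.4 TPM. Abcc9 (2.03 TPM) and Notch3 (2.50 TPM) were at their lowest of the 10 tumors there, and Rgs5, Kcnj8 and Higd1b were not. The vector tumors had pericyte sums between 43.8 and 88.0 TPM. The part of pericytes in Acta2 and Tagln was not tested. Smooth muscle markers were low in most tumors but not all at 0. Myh11, the smooth muscle myosin heavy chain, was at 0.71 to 1.62 TPM over the 10 tumors, and Cnn1, calponin, at up to 0.48 TPM. Des, desmin, which skeletal muscle also makes, reached 19.3 TPM in vector tumor 4, and Actg2 reached 5.87 TPM and Lmod1 3.75 TPM in vector tumor 3. The 6 genes summed to 22.3 TPM in vector tumor 4, 17.7 TPM in vector tumor 3 and 2.74 to 9.39 TPM in the others.

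**Figure D2:**
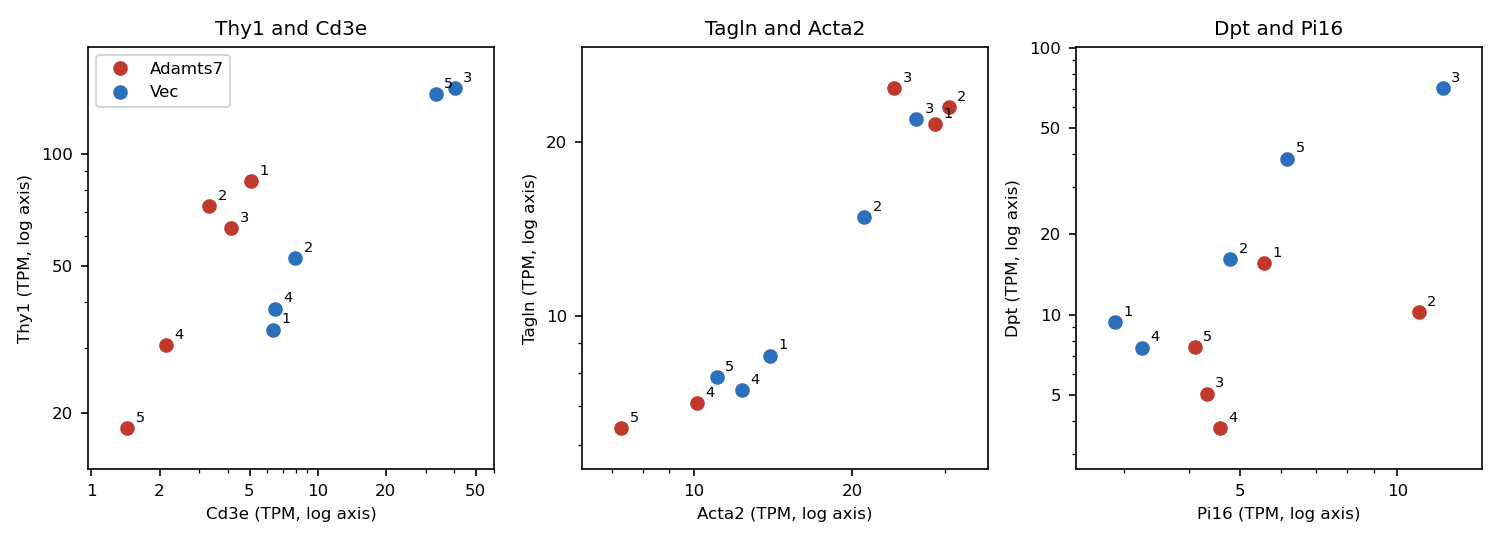
Levels of gene pairs in the 10 tumors in TPM, both axes logarithmic, with 1 point a tumor labelled by its number within its group: Thy1 against Cd3e, Tagln against Acta2, and Dpt against Pi16. Each Adamts7 tumor holds more Thy1 for its Cd3e than each vector tumor, Tagln and Acta2 lie along 1 line for both groups, and vector tumors 3 and 5 have the highest Dpt levels.

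The universal markers were each higher in vector tumors 3 and 5 than in the other vector tumors, by different amounts. Dpt, which encodes dermatopontin, a small matrix protein of dermal fibroblasts, was at 15.6, 10.2, 5.07, 3.76 and 7.56 TPM in the Adamts7 tumors and at 9.36, 16.2, 70.8, 7.54 and 38.5 TPM in the vector tumors. Vector tumors 3 and 5 were far above all others, while vector tumors 1, 2 and 4 lay inside or just above the Adamts7 range. The Adamts7 mean was 8.45 ± 4.72 TPM (SD, n = 5), against a vector mean of 28.5 ± 26.7 TPM (SD, n = 5). The log2 difference was -1.31 (SE 0.58), with a 95% interval from -2.59 to -0.025, which corresponds to an unadjusted limma p of 0.0465 and an adjusted p of 0.242. The exact two-sided permutation test gave p = 0.103. Without vector tumors 3 and 5 the difference shrank to -0.42 (limma adjusted p = 0.726), and it was also -0.42 with Adamts7 tumor 5 left out too. It was below 0 in 99 of the 100 possible day 45 choices, which share tumors, from -2.54 to 0.02. In the authors' deposited table the log2 fold change of Dpt was -1.64 (SE 0.59), with an adjusted p of 0.0612.

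Pi16, a peptidase inhibitor that marks universal fibroblasts near vessels, was at 5.56, 11.0, 4.32, 4.58 and 4.10 TPM in the Adamts7 tumors and at 2.89, 4.79, 12.2, 3.25 and 6.16 TPM in the vector tumors. One tumor in each group, Adamts7 2 and Vec 3, stood above the rest. Mfap5, a microfibril-associated protein, was at 85.9, 66.8, 50.3, 18.6 and 20.1 TPM against 33.1, 35.5, 54.5, 19.9 and 55.9 TPM. Its highest levels were in Adamts7 tumors 1 and 2, and Adamts7 tumors 4 and 5 were low, as for Acta2 and Tagln. The log2 differences were 0.08 (SE 0.35) for Pi16 and 0.12 (SE 0.45) for Mfap5, with limma adjusted p of 0.913 and 0.891. They were 0.51 and 0.49 without vector tumors 3 and 5, and with Adamts7 tumor 5 left out too 0.60 and 0.74. The level of Dpt over that of Pi16 was 0.821 to 2.81 in the Adamts7 tumors and 2.32 to 6.24 in the vector tumors. Dpt over Mfap5 was 0.101 to 0.377 against 0.282 to 1.30, so both ratios overlapped between the groups.

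Of the 10 markers, 0 were called at an adjusted p under 0.05, where limma called 34 of 15276 genes (0.223%), 4 higher and 30 lower in the Adamts7 tumors. Only Dpt had an unadjusted limma p under 0.05. Among the same markers in the authors' deposited table, 0 passed an adjusted p of 0.05, against 7.96% of its genes, and Fap and Dpt had an unadjusted p under 0.05. The groups did not overlap for 0 of the 10 markers, against 4.89% of all genes tested. The difference was above 0 for 6 markers and below 0 for 4, with a median of 0.07, where the median of all genes was -0.10 and 60.2% of them were below 0. Median-of-ratios and quantile scaling moved the all-gene median to 0.01 and 0.04 and the calls to 8 higher with 21 lower and 10 higher with 20 lower, and the sign of no marker changed under these 2 scalings.

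Leaving out tumors shifted several markers at a time, in directions set by where those tumors lay. Vector tumors 3 and 5 were both above the other vector tumors for 7 of the 10 markers, so leaving them out must raise those differences. Adamts7 tumor 5 was the lowest of its group for Fap, Pdgfra, Thy1, Acta2, Tagln and Pi16, so leaving it out must raise these. Without vector tumors 3 and 5, 8 of 10 differences were above 0 with a median of 0.41, while the all-gene median stayed at -0.10, and 0 markers were called (0.183% of all genes were). Leaving out Adamts7 tumor 5 as well gave 9 of 10 above 0 and a median of 0.49, with 0 markers called against 5.24% of all genes. Dpt was the marker that stayed below 0 in both. Leaving out other tumors moved them the other way: 3 of 10 were above 0 without Adamts7 tumor 1, without Adamts7 tumor 2 or without vector tumor 4, and 4 of 10 without vector tumor 1, with medians from -0.12 to -0.10.

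**Figure D3:**
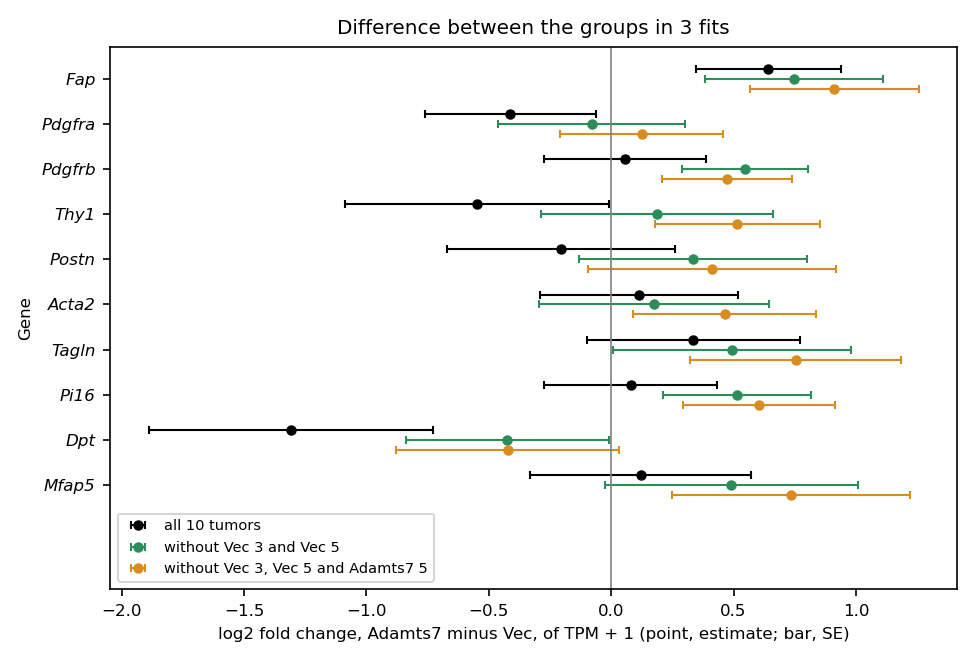
Log2 fold change of each marker, Adamts7 minus Vec, on the log2(TPM + 1) scale (x axis; point, estimate; bar, SE) in 3 fits: all 10 tumors, without vector tumors 3 and 5, and with Adamts7 tumor 5 left out too. Fap lies above 0 and Dpt below 0 in each, while Thy1 and Postn change sign once vector tumors 3 and 5 are left out.

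By mean TPM over the 10 tumors the order was Postn (82.1 ± 43.7, SD), Thy1 (69.0 ± 46.5), Mfap5 (44.0 ± 22.5), Acta2 (18.6 ± 8.57), Dpt (18.5 ± 20.9), Pdgfrb (15.9 ± 6.15), Tagln (14.3 ± 7.66), Fap (8.73 ± 4.06), Pdgfra (6.52 ± 3.16) and Pi16 (5.88 ± 3.17). TPM is scaled by transcript length, so these levels can be set beside each other. Mfap5 was above Acta2 in 10 of 10 tumors, the one step in this order that every tumor showed. Postn was above Thy1 in 7 tumors, Dpt above Pdgfrb in 4, and Fap above Pdgfra in 6, so these neighbours were not separated beyond the spread between tumors.

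Tumors of 1 group differed in several markers at a time. Adamts7 tumors 4 and 5 were both below Adamts7 tumors 1 to 3 for 6 of the 10 markers: Pdgfra, Thy1, Postn, Acta2, Tagln and Mfap5. Vector tumors 3 and 5 were both above the other vector tumors for 7 of them. For 0 of the 10 markers was the difference of the group means larger than the larger of the group SDs.

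**Figure D4:**
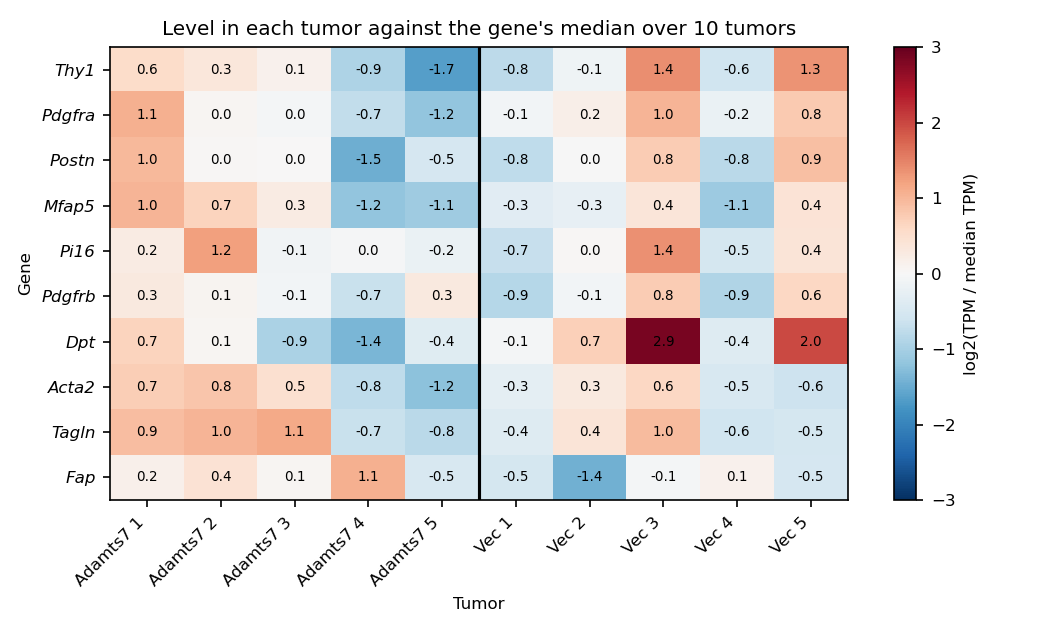
Level of each marker (rows) in each tumor (columns) as log2 of its TPM over that gene's median TPM in the 10 tumors (colour, red above and blue below the median, with the value printed). Adamts7 tumor 1 and vector tumors 3 and 5 are high for most activated markers, Adamts7 tumors 1 to 3 and vector tumor 3 for Acta2 and Tagln, and Fap has a pattern of its own with its highest value in Adamts7 tumor 4.

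Correlations of log2(TPM + 1) over the 10 tumors describe how the markers varied together. In each tumor both genes of a pair were read from the same library, and the tumors fall into groups, so no p is given. Acta2 and Tagln had the highest Pearson's r of the 45 pairs, 0.96, and 0.95 over the 8 tumors without vector tumors 3 and 5. Pdgfra and Thy1 were at r = 0.92 (0.88 over 8 tumors), and Postn and Mfap5 at r = 0.86 (0.88 over 8). Thy1 and Acta2 were at r = 0.61 over 10 tumors and 0.98 over 8. Fap stood outside, with r between -0.39 and 0.19 to the other 9 markers, whereas all 36 pairs without Fap were above 0, from 0.27 to 0.96.

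The tested genes whose pattern over the 10 tumors was most like that of each marker were found by the same r. Mfap5 was nearest to Sulf1 (0.99), Mrc2 (0.99) and Fstl1 (0.97), and Thy1 to Ldlrad4, Fam43a and Col6a3 (0.98 each). Postn was nearest to Rian (0.98), Ly6e (0.97) and Srpx (0.97), Pdgfra to B3galnt1 (0.98), Prrx2 (0.97) and Tlr13 (0.97), and Pdgfrb to Mxra8 (0.98), Neo1 (0.97) and Sgpp1 (0.95). Acta2 was nearest to Tagln (0.96), Col14a1 (0.94) and Pecam1 (0.94), the last an endothelial adhesion molecule, and Tagln to Acta2, Pecam1 (0.92) and Ppp1r3f (0.91). Dpt was nearest to Gstk1 (0.98), Thbs3 (0.97) and the natural killer cell receptor gene Klra8 (0.97), and Pi16 to Dnajc12 (0.92), Slc1a4 (0.89) and Pbx3 (0.89). Fap had the lowest likeness to its nearest gene among the 10 markers, with Zdhhc21 at 0.85, Cerox1 at 0.84 and Armc2 at 0.79.

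Other fibroblast genes were read from the same fit, and 0 genes were called in any of the lists that follow with all 10 tumors. The collagen chain Col1a1 was at 71.1 to 520.0 TPM over the 10 tumors and Col3a1 at 110.7 to 653.7 TPM. Among 10 pan-fibroblast genes, the 8 other than Vim and S100a4, which melanoma cells and macrophages also make, summed to 330.9 to 1838 TPM in the Adamts7 tumors and 497.2 to 1462 TPM in the vector tumors. Of all 10, 4 differences were above 0 and 6 below, with a median of -0.22 that became 0.14 without vector tumors 3 and 5. Dcn, decorin, and Lum, lumican, both small proteoglycans of collagen fibrils, had differences of -1.24 and -1.21 (limma adjusted p = 0.278 and 0.266). Of 12 genes of the myofibroblast state that TGF-beta drives, 11 were tested and Comp was not, with 8 above 0 and a median of 0.16 (0.38 without vector tumors 3 and 5). Lrrc15, a membrane protein of that state, was at 1.21 to 14.4 TPM in the Adamts7 tumors and 0.72 to 4.01 TPM in the vector tumors, with a difference of 0.92 (SE 0.53; limma adjusted p = 0.337). Col11a1, a fibrillar collagen chain, went the other way, at 2.40 to 7.21 against 4.05 to 40.6 TPM and -1.49 (SE 0.50; limma adjusted p = 0.163).

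Of 12 genes of inflammatory fibroblasts, 8 were tested, and 7 of these had differences below 0, with a median of -1.05. That median was 0.00 without vector tumors 3 and 5, in which the 12 genes summed to 759.5 and 572.1 TPM. They summed to 65.6 to 256.5 TPM in the Adamts7 tumors and to 122.1 to 141.7 TPM in the other vector tumors. The complement gene C3 alone was 405.8 and 244.3 TPM in vector tumors 3 and 5. Macrophage marker sums were also highest there, at 3151 and 2822 TPM, and which cells made these RNAs was not tested. Among the tested genes Ccl2, a monocyte chemoattractant, was at -1.23 and C3 at -1.36 (limma adjusted p = 0.310 and 0.305). Of 13 other universal fibroblast genes, 10 were below 0, with a median of -0.65 (0.05 without vector tumors 3 and 5). Sema3c, a secreted semaphorin, was the one of the 13 whose groups did not overlap, where 4.89% of all genes tested did not. It was at 1.44 to 5.06 TPM in the Adamts7 tumors and 5.65 to 11.5 TPM in the vector tumors. Its difference was -0.87 (SE 0.27), with a limma adjusted p of 0.144. The exact two-sided permutation test gave p = 0.00794, which any gene whose groups do not overlap gets.

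The signals that act on the receptors and on the contractile genes were measured too. All 4 PDGF ligand genes had differences below 0, with a median of -1.0 (-0.21 without vector tumors 3 and 5). Pdgfd, a ligand of Pdgfrb, was at 3.27 to 6.43 TPM in the Adamts7 tumors and 7.01 to 12.6 TPM in the vector tumors. The groups did not overlap, as for 4.89% of all genes tested. Its difference was -1.03 (SE 0.22; limma adjusted p = 0.0840). Pdgfd passed without Adamts7 tumor 5, its highest tumor in that group at 6.43 TPM (limma adjusted p = 0.0238). In that fit 655 of 15276 genes passed. Pdgfa, a ligand of Pdgfra, was at 65.6 to 132 against 108 to 339 TPM, with overlap (limma adjusted p = 0.203). Of 11 genes of the TGF-beta pathway, 5 were above 0 and 6 below, with a median of -0.11, and the inhibitor Smad7 was at -0.80 (SE 0.28; limma adjusted p = 0.174).

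Srf, which encodes the factor that binds CArG boxes, was at 32.5 to 38.5 TPM in the Adamts7 tumors and 27.6 to 38.3 TPM in the vector tumors, a narrower range than that of Acta2 or Tagln. Its coactivators Mrtfa and Mrtfb had differences of -0.05 and -0.04. Of 13 other contractile genes, 11 were tested, 4 of them above 0 and 7 below, with a median of -0.14. Myl9, a myosin light chain, was at 23.1 to 35.8 TPM against 33.6 to 184 TPM, with a difference of -1.06 (SE 0.39; limma adjusted p = 0.188), opposite in sign to Acta2 and Tagln. Of 4 prolyl-specific peptidase relatives of Fap, 3 were above 0, with the prolyl endopeptidase Prep at 0.71 and the dipeptidyl peptidase Dpp4 at -0.60 (limma adjusted p = 0.184 and 0.427).

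**Figure D5:**
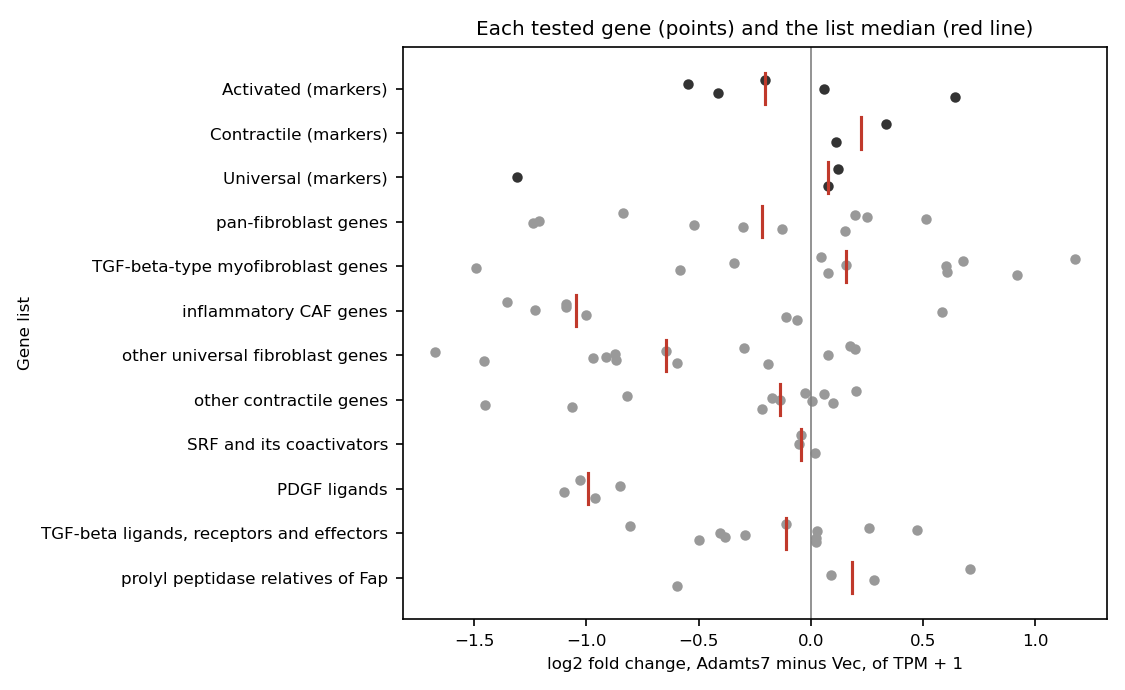
Log2 fold change, Adamts7 minus Vec, on the log2(TPM + 1) scale (x axis) for the tested genes of each list (rows; points, genes; bars, list medians). The medians of the inflammatory and PDGF ligand lists lie at about -1, those of the 3 groups of fibroblast state markers between -0.21 and 0.23, and 0 genes of the lists shown were called.

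Markers of other cell types moved with some of these genes, and their part in the marker levels was not tested. T cell genes had differences below 0 for 12 of 12, with sums of 18.4 to 52.2 TPM in the Adamts7 tumors and 50.3 to 421 TPM in the vector tumors. Natural killer cell genes were below 0 for 6 of 6 and macrophage genes for 7 of 8, with macrophage sums of 411 to 1990 against 784 to 3151 TPM. The list medians went from -1.59 to -0.65 for T cells, from -1.24 to -0.55 for natural killer cells and from -0.61 to 0.11 for macrophages when vector tumors 3 and 5 were left out. Pigment cell genes were above 0 for 7 of 7, with a median of 2.13 that was -0.07 without vector tumors 3 and 5. The markers of dedifferentiated melanoma cells summed to 3712 and 3317 TPM in vector tumors 3 and 5. Thy1 and Dpt were highest in those tumors and Postn was at 128.5 and 143.5 TPM. The same sum was 406 to 1547 TPM in the Adamts7 tumors and 538.5 to 1062 TPM in vector tumors 1, 2 and 4. Aqp1, a water channel that endothelium also makes, was 3272 and 2912 TPM of the sums in vector tumors 3 and 5. The other 6 genes summed to 440.0 and 404.9 TPM there. Those 6 summed to 141.9 to 367.5 TPM in the Adamts7 tumors and 234.3 to 335.1 TPM in vector tumors 1, 2 and 4. Of the 6, Axl was at its highest in vector tumors 3 and 5, at 232.7 and 221.6 TPM. Nes, at 164.2 and 125.2 TPM there, was not. Endothelial sums were 60.2 to 128.5 TPM against 70.5 to 133 TPM. Keratinocyte markers summed to at most 3.04 TPM and adipocyte markers to between 9.41 and 22.9 TPM.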

How the data were processed

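Poly(A) RNA of 10 tumors, 1 library each, was sequenced as paired reads of 150 bases, per the labels' protocols. The authors deposited log2(TPM + 1) per gene, and the submitters' processing notes name RSEM and the build mm39. They also deposited a comparison table with log2 fold changes, p-values, test scores and mean signal, and the submitters' processing notes name DESeq2; its values are printed only as theirs, and 28805 of its 30040 IDs were paired with a symbol. The aligner and annotation are not given in the sources used here, and depth is unknown.

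Groups came from the titles. The values were tested with limma 3.58.1 (R 4.3.3, trended prior variance) over the 15276 genes whose mean reached 1 TPM, Benjamini-Hochberg adjusted over all of them, and called at an adjusted p under 0.05. Fold changes on the log2(TPM + 1) scale understate those of low genes. Each marker also had an exact two-sided permutation test over its 252 arrangements (scipy 1.17.1). The fit was tested on simulated data. Nothing says more on how the tumors were replicated, so p-values measure the spread between these tumors.

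The markers and gene lists were chosen with earlier results of these data known. Genes named are the markers, up to 4 genes of each companion list and up to 3 of each cell type list with the smallest p, the defining markers of cell types near 0, Adamts7, and the 3 genes most correlated with each marker, predicted genes and pseudogenes aside. Alternatives were other pseudocounts (0.1 and 0.5), filters, scalings, each tumor left out, array weights, a block for the replicate number, and the sets of 3 tumors a group that could be those of day 45. Same-build sequence was not used here.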

Additional observations from a re-analysis of the deposited data

Results flagged for a closer look

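The lowest and the highest tumor of each group of 5 was compared with its neighbours by Dixon's test (critical value 0.710). The test used the log2(TPM + 1) scale and 74 named genes, 148 groups in all, and chance alone would mark about 1 in 20 groups. On that scale none of the 20 groups of the 10 markers was marked, and 12 groups of other genes were, 7 of them through the tumor labelled Adamts7 5. The marks depend on the scale. Pi16 in Adamts7 tumor 2, at 11.0 TPM against 4.10 to 5.56 TPM in the rest of its group, fell just short and would be marked on the TPM scale. In that tumor Adamts7 was at 18.22 TPM (74.8 to 96.0 in the other 4), Sema3c at 1.44 TPM (3.89 to 5.06), Des at 0.68 TPM (2.66 to 3.84), Mrtfa at 24.5 TPM (39.0 to 46.5) and Prep at 10.1 TPM (17.5 to 19.3). Pdgfd at 6.43 TPM (3.27 to 3.96) and Tgfb2 at 32.9 TPM (13.8 to 15.3) were high there.

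In vector tumor 5 Srf was at 27.6 TPM, against 35.8 to 38.3 TPM in the other vector tumors. Vector tumor 4 had Mylpf at 92.8 TPM (1.37 to 4.48 elsewhere in its group), Acta1 at 127.8 TPM (0.00 to 1.73) and Pparg at 1.14 TPM (2.15 to 2.58). Acta1 was listed at 0.00 TPM in Adamts7 tumor 2 against 0.07 to 0.09 TPM, values too low to tell apart.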

How the results depend on the processing

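No marker was called in any of 23 fits. All genes called, 34 with all 10 tumors, numbered 10 without the filter, 1219 with array weights, and 800 without vector tumors 3 and 5 and Adamts7 tumor 5. Leaving out 1 tumor gave 6 to 655: 655 without Adamts7 5, 15, 7, 6 and 6 without Adamts7 1, 2, 3 and 4, and 8, 6 and 6 without Vec 3, 4 and 5. TPM keeps no depth, so no limit from counting can be given.

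The labels do not say whether tumor numbers pair the tumors. In their deviations from the group means, same-numbered tumors correlated at -0.278 to 0.262, and 1 of 5 numbers was its tumor's best match. So few values show no pairing but cannot settle it. With the replicate block 0 genes were called by limma (3028 at an unadjusted p under 0.05). Each number occurs once in each group, so this block leaves every difference as it was, and no sign could change.

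For single genes the log2 difference changed sign as follows, and the cause was not tested. Leaving out 1 tumor gave Pdgfrb -0.13 to 0.26, Acta2 -0.078 to 0.40, Mfap5 -0.15 to 0.39, Pi16 -0.14 to 0.35, Postn -0.49 to 0.11, Srf -0.0632 to 0.0514, Mrtfa -0.19 to 0.11, Mrtfb -0.16 to 0.0369, Actg2 -0.35 to 0.20 and Ngfr -0.58 to 0.0312. Median-of-ratios scaling gave Mrtfb 0.068 and Mrtfa 0.0665, and quantile scaling Mrtfb 0.14, Mrtfa 0.0643, Myh11 0.0235, Actg2 0.0871 and Lipe 0.0332. Array weights gave Thy1 0.22, Postn 0.21, Srf -0.0469, Actg2 0.14, C1qb 0.0341, Axl 0.27 and Ngfr 0.23. Without vector tumors 3 and 5 the values were Thy1 0.19, Postn 0.33, Srf -0.0565, Pdgfc 0.16, Dpp4 0.0861, Dpp9 -0.0613, Actg2 0.0473, C1qb 0.0826, Adgre1 0.0056, Axl 0.27 and Ngfr 0.19. Without Adamts7 tumor 5 as well they were Pdgfra 0.12, Thy1 0.52, Postn 0.41, S100a4 0.28, C3 0.0335, Cnn2 0.0491, Srf -0.0377, Pdgfb 0.21, Pdgfc 0.32, Dpp4 0.0899, Actg2 0.21, Csf1r 0.21, C1qb 0.35, Adgre1 0.29, Axl 0.68 and Ngfr 0.54. Over the 100 possible day 45 choices the far ends were Pdgfra 0.35, Pdgfrb -0.63, Thy1 0.82, Postn 0.85, Acta2 -0.66, Tagln -0.45, Pi16 -0.62, Dpt 0.0245 and Mfap5 -0.81. Fap kept its sign under all of these. Of the other named genes' values, 17 newly passed the threshold under an alternative, among them Pdgfd, Prep, Tgfb2, Tgfbr2 and Adamts7.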
